A study of Mus musculus with 9 samples.

Results

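Malat1, Neat1, Miat and Kcnq1ot1 are 4 long noncoding RNAs (lncRNAs) that are known to stay in the nucleus, and they were chosen by name from the 24132 gene symbols of an RNA immunoprecipitation series in mouse embryonic stem cells (ESCs). They were followed as input level and as IP minus input in all 9 libraries. WDR5 is a scaffold subunit of the MLL complexes that methylate histone H3 lysine 4, and it also binds RNA. The question of the series was which RNAs come down with wild type WDR5 but not with an RNA-binding mutant of it.

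The 3 lines were ESCs of the strain 129/B6 F1 hybrid infected with lentivirus. The empty vector line received a virus with no tagged WDR5, the WT line one with FLAG-HA tagged wild type WDR5, and the F266A line one with FLAG-HA tagged WDR5 F266A, in which a phenylalanine was replaced by alanine. Cells were fixed with formaldehyde, the chromatin was sheared, and complexes were pulled down first through FLAG and then through HA (RIPiT-seq). Each line gave 1 input library, made without antibody, and 2 IP libraries. The tagged lines were individually isolated clones chosen for a WDR5 level near the endogenous one, and the F266A construct was shorter at its N terminus, so the mutation cannot be told apart from the clone or from the construct's length. Levels are the deposited RPKM (reads per length of transcript, scaled to the mapped reads of the library), and the score of an IP is its log2(RPKM + 1) minus that of the input of its own line.

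Malat1 is a retained transcript of nuclear speckles, the bodies in which splicing factors gather. Neat1 is the scaffold RNA around which paraspeckles form, and its long form is needed for these bodies while a shorter form shares its 5′ part. Miat, also called Gomafu, is a spliced lncRNA that is known from neurons and that carries repeats matched to the branch point of introns, which the splicing factor SF1 binds. Kcnq1ot1 is an unspliced antisense RNA transcribed from the paternal chromosome, where it silences imprinted neighbors in cis. All 4 are thus RNAs that act or reside at chromatin or in nuclear bodies, and none codes for a protein.

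The sequences below carry the features for which these RNAs are known, read from mm9 on the minus strand, from which all 4 are transcribed. The first pair holds the 3′ end regions of Malat1 (chr19:5795912-5796075, inside the annotated gene) and of the long form of Neat1 (chr19:5824638-5824807, which runs past the annotated 3′ end of the gene). Capitals mark, in this order, a first and a second U-rich motif and the A-rich tract, which fold into a triplex that protects an end without a poly(A) tail; the tract is followed by a tRNA-like stretch at which both RNAs are cut.
Malat1 3′ end: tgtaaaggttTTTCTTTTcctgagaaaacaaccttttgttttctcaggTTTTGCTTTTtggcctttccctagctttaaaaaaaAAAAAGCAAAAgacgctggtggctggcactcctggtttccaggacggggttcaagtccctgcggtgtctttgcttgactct
Neat1 3′ end: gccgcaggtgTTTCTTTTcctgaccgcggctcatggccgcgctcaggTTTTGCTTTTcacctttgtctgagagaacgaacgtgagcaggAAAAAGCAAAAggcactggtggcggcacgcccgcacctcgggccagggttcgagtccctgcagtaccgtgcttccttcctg
Both regions held each of the 3 motifs once, with the same letters, on the transcribed strand. Of 55191 protein-coding transcripts of the mm9 annotation, 0 held all 3 in their last 170 bases. This count is no like-for-like background. The 3 motifs are those known from these RNAs, and both regions were cut around the first U-rich motif and the A-rich tract. In Malat1 the motifs lie further from the annotated 3′ end than 170 bases.

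The second pair is taken from Miat, where capitals mark the repeat ACTAAC and, where the preceding base is T, the full TACTAAC. The stretches lie at chr5:112646331-112646477 and chr5:112645774-112645895.
Miat repeat stretch 1: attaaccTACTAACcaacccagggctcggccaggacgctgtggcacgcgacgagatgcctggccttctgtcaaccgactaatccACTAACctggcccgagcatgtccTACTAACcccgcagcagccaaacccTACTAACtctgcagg
Miat repeat stretch 2: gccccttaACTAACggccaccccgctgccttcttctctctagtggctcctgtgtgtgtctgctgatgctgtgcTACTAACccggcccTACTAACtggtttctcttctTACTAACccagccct
Each stretch held 4 copies of ACTAAC, of which 3 were TACTAAC. Both stretches were chosen because copies of ACTAAC lie densest in them, so the count of 4 follows from that choice. The spliced Miat transcript of 8760 bases held 11 copies of ACTAAC on its own strand, or 1.26 per kb, against 0 in Malat1, 4 in Neat1 (0.193 per kb) and 18 in the far longer Kcnq1ot1 (0.216 per kb). Of 845 protein-coding transcripts at least as long as Miat, 0 held 11 or more in their last 8760 bases, and the median was 1. The motif is one known from Miat, so this count is no like-for-like background either.

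The promoter of Kcnq1ot1 (chr7:150482403-150482702, 300 bases over the start site given by RefSeq, placed on mm9 by their sequence) is shown because the CCAAT boxes in it, in capitals, belong to the imprinting control region from which the RNA starts.
Kcnq1ot1 promoter: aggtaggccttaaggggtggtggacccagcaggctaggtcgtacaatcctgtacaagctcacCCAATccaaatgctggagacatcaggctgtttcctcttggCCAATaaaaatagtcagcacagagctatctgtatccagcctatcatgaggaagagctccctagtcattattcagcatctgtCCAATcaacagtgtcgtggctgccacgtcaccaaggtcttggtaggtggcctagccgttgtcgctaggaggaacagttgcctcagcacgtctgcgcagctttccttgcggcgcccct
It held 3 copies of CCAAT on the transcribed strand. CCAAT occurred on either strand in 37.4% of 32851 promoters of the same length and at least 3 times in 3.37%. These matches describe the sequence only.

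In the mm9 annotation Malat1 lies at chr19:5795690-5802671 and Neat1 at chr19:5824708-5845478, only 22037 bases apart and both on the minus strand. The longest forms of both are unspliced, with 6982 bases for Malat1 and 20771 for Neat1. Miat lies at chr5:112642248-112657968 and has 7 exons. Kcnq1ot1 has 83437 bases in the RefSeq gene table of a later assembly, is absent from the mm9 annotation used here, and starts at position 150482452 of chromosome 7, in intron 11 of Kcnq1 and on the opposite strand. The GC content was 42.5% for Malat1, 47.3% for Neat1, 54.9% for Miat and 40.8% for Kcnq1ot1.

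Depth estimated from the lowest RPKM steps lay between 37500000 and 50200000 mapped reads in the inputs and between 13400000 and 27300000 in the IPs. The ESC markers fitted the label in all libraries, since all 10 were in the table and their summed RPKM lay between 543 and 872.5. The summed RPKM of 6 neural markers lay between 3.659 and 6.852 with 0 of them below 0.1 throughout. For 6 fibroblast markers it lay between 0.54 and 1.716, with Col1a1, Col1a2, Col3a1 and Postn below 0.1 in all libraries, and for 5 trophoblast markers between 1.404 and 4.16, with Cdx2 and Elf5 below 0.1 in all. The library labelled F266A IP replicate 1 went against its line. The summed RPKM of the Y-linked genes Eif2s3y, Uty and Ddx3y, picked once values were known, was 0.0383 in it, against 4.429 in the F266A input and 7.205 in F266A IP replicate 2, between 7.413 and 9.484 in the empty vector libraries and between 0.1821 and 0.3245 in the WT libraries. The summed RPKM of 10 primitive endoderm markers was likewise 5.852 in it, against 19.87 and 26.43 in the other F266A libraries and between 3.17 and 4.58 in the remaining 6, with Foxa2 below 0.1 in all. The test results of the lncRNAs, the list medians and the calls that depend on this library are therefore also given without it. Correlations over the libraries are given only with it.

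The order of the levels was the same in all 9 libraries. Malat1 was highest, Neat1 followed, then Kcnq1ot1, and Miat was last, and no library of one RNA overlapped any library of the next. On the RPKM scale, which is per length, Malat1 exceeded Neat1 by 31.38-fold to 110.8-fold and Kcnq1ot1 by 206-fold to 459.5-fold. Neat1 exceeded Kcnq1ot1 by 2.521-fold to 12.15-fold. The transcript lengths by which the authors divided are not given in the sources used here, and for Neat1, with its short and long forms, and for Kcnq1ot1 the per-length level depends on that choice, so the distance between these 2 is the least certain step.

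**Figure D1:**
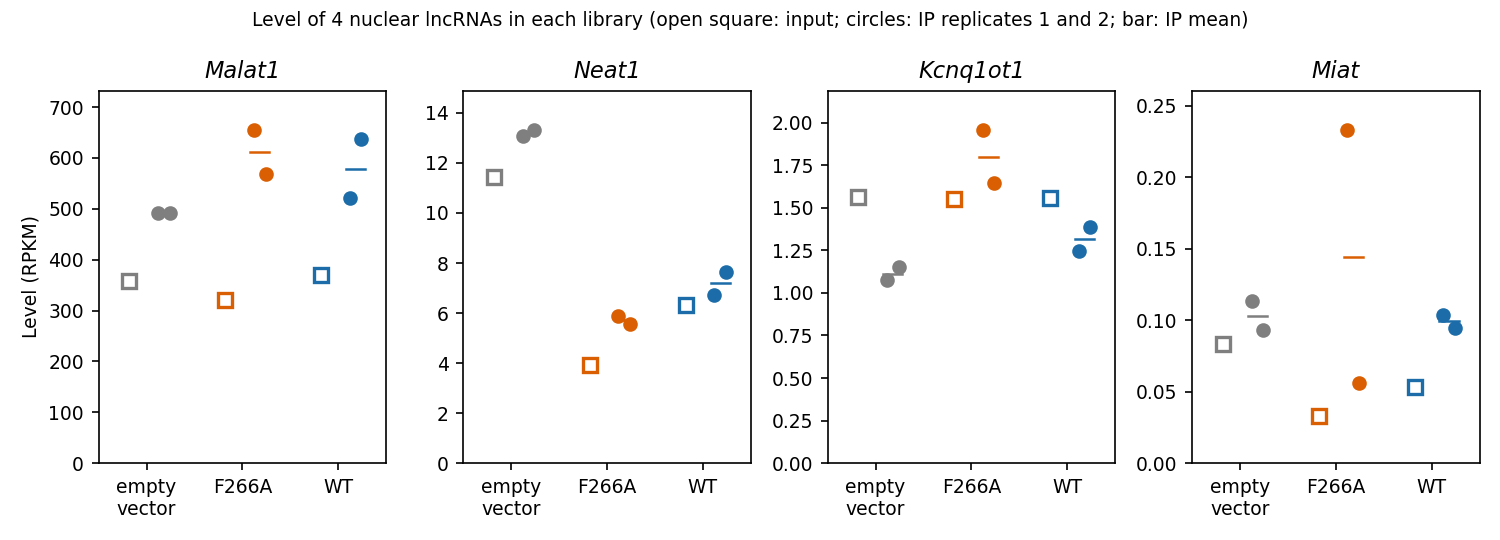
RPKM of each lncRNA (vertical axes, linear and starting at 0, a scale of its own per panel) in the 3 lines. Open squares are the input, circles the 2 IP libraries and bars their mean. Malat1 IPs sat between 491.5 and 654, above inputs between 320 and 370.5, whereas Neat1 separated by line and Kcnq1ot1 inputs lay between 1.554 and 1.561.

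Malat1, the speckle RNA, was among the most abundant RNAs of the table. Inputs held an RPKM of 358.5 (empty vector), 320 (F266A) and 370.5 (WT), which ranked it 13th, 9th and 10th among all symbols. In the IPs it was 491.5 and 492.3 in the empty vector line, 654 and 568.6 in the F266A line and 520.6 and 636.6 in the WT line. All 6 IPs were thus above all 3 inputs, and the share of genes with this pattern was not counted. Every IP was above its own input, which is a weaker condition, for 66.3% of genes with an RPKM of 1 in 2 or more libraries. The IP mean of Malat1 was 1.372 times the input in the empty vector line, 1.91 times in F266A and 1.562 times in WT. The F266A line had the highest score, 0.93 ± 0.14 (SD, n = 2), WT had 0.63 ± 0.20 (SD, n = 2) and the empty vector line 0.46 ± 0.0015 (SD, n = 2), so the line without any tagged protein had a positive score as well.

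Neat1, the paraspeckle RNA, differed most between lines. Inputs held an RPKM of 11.42 (empty vector), 3.916 (F266A) and 6.306 (WT). The IPs followed the same order, with 13.09 and 13.3 in the empty vector line, 5.901 and 5.543 in F266A and 6.72 and 7.661 in WT. The lines did not overlap. Among genes with an RPKM of 1 in 2 or more libraries, 7.33% had the empty vector line highest in inputs and IPs alike. That is a weaker condition, and the share with all lines apart was not counted. The highest input was 2.917 times the lowest, a wider ratio than in 96.1% of the 9787 tested genes, which are those that reached an RPKM of 1 in 2 or more libraries, and among which the median ratio was 1.302. Each input is 1 library of 1 clone, inputs were not tested against each other, and fewer cells of a type with the RNA cannot be told apart from less RNA per cell. The primitive endoderm markers were highest in the F266A input, where Neat1 was lowest, but were about equal in the empty vector and WT inputs (3.848 and 3.17), where Neat1 differed; their part was not tested. The F266A line scored 0.45 ± 0.054 (SD, n = 2), the empty vector line 0.19 ± 0.015 (SD, n = 2) and WT 0.16 ± 0.12 (SD, n = 2).

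Kcnq1ot1, the imprinted antisense RNA, had nearly equal inputs of 1.561 in the empty vector line, 1.554 in F266A and 1.557 in WT. Its IPs were 1.077 and 1.15 in the empty vector line, 1.954 and 1.644 in F266A and 1.244 and 1.386 in WT. All 4 IPs of the empty vector and WT lines were below their inputs and both F266A IPs were above theirs. The score was thus -0.28 ± 0.035 (SD, n = 2) for the empty vector, -0.14 ± 0.062 (SD, n = 2) for WT and 0.13 ± 0.11 (SD, n = 2) for the mutant. The kit is not stated to keep the strand, so reads of Kcnq1ot1 and of Kcnq1, the potassium channel gene it overlaps, cannot be told apart where their exons meet. The RPKM of Kcnq1 was low, between 0.02227 and 0.1645, and was highest in the F266A input and lowest in WT IP replicate 1.

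Miat, the repeat-bearing neuronal RNA, was near the floor of detection. Inputs held an RPKM of 0.08353 (empty vector), 0.03304 (F266A) and 0.05299 (WT), which corresponds to about 37, 11 and 20 reads over its spliced length. In the IPs it was 0.1132 and 0.09334 in the empty vector line, 0.2327 and 0.0561 in F266A and 0.1039 and 0.09447 in WT, or about 11 to 42 reads. The highest value came from the library labelled F266A IP replicate 1, and without it the other IPs spanned 0.0561 to 0.1132. Miat reached an RPKM of 1 in 0 libraries, so 3 of the 4 lncRNAs were tested. With all 20431 symbols above 0 and a pseudocount of 0.1 its IP minus input difference was 0.43 with a standard error of 0.28 (adjusted p = 0.348, limma with Benjamini-Hochberg adjustment).

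The IP libraries as a whole ran above their inputs, which sets the scale for any score. The median score over the tested genes was 0.27 and 0.26 in the empty vector IPs, 0.39 and 0.35 in the F266A IPs and 0.27 in both WT IPs. Against these medians Malat1 was above in 6 of 6 IPs, Neat1 in 2 of 6 (both F266A IPs) and Kcnq1ot1 in 0 of 6. Malat1 scored higher than 75.9% and 80.5% of tested genes in the empty vector IPs, than 97.0% and 97.3% in the F266A IPs and than 77.6% and 97.9% in the WT IPs. Neat1 lay between 23.1% and 63.7%. Kcnq1ot1 lay between 2.5% and 6.0% in 5 IPs and at 27.5% in the library labelled F266A IP replicate 1.

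**Figure D2:**
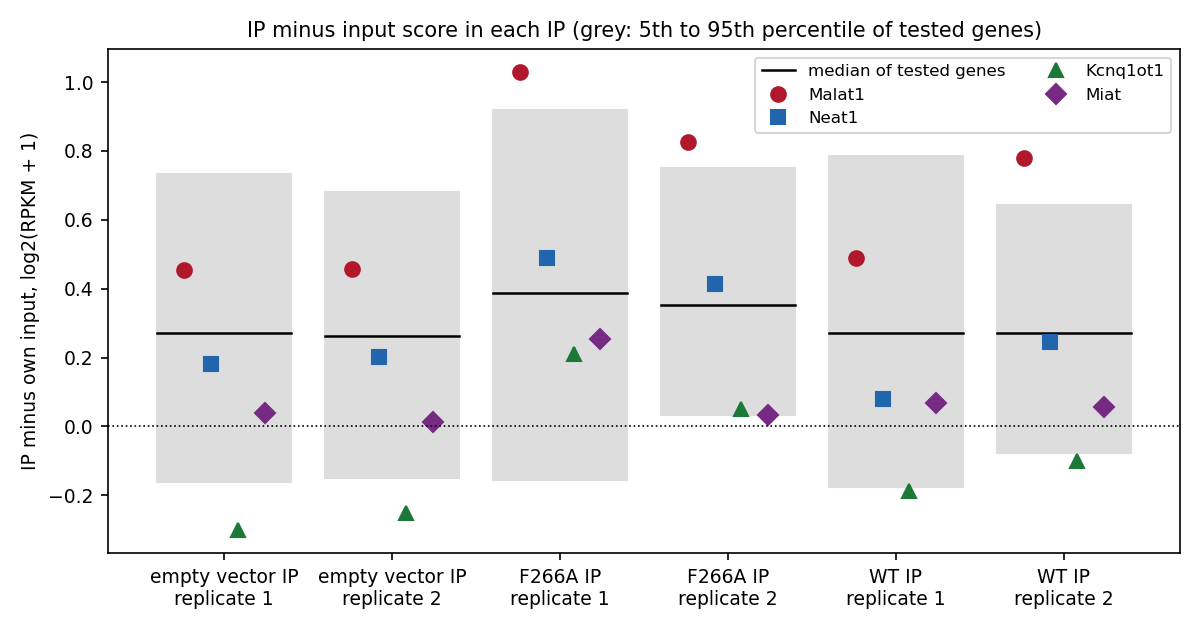
IP minus input score on the log2(RPKM + 1) scale (vertical axis) of the 4 lncRNAs in each of the 6 IPs. Grey boxes span the 5th to the 95th percentile of the 9787 tested genes and black lines their median, between 0.26 and 0.39; Malat1 was above that line in 6 of 6 IPs and Kcnq1ot1 below it in 6 of 6.

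The first comparison asked which RNAs were higher in the IPs than in the inputs, averaged over the 3 lines. Malat1 rose by 0.67 (standard error 0.11, log2 scale) with an adjusted p of 0.00387 from limma with Benjamini-Hochberg adjustment. Neat1 rose by 0.27 (standard error 0.08, adjusted p = 0.0251, limma), less than the median change of 0.30 over all tested genes, and reversed to -0.04 when libraries were set to equal medians and to -0.13 after quantile normalization. Kcnq1ot1 differed by -0.10 (standard error 0.09, adjusted p = 0.336, limma), which did not pass the test. Of the 3 tested lncRNAs 2 were thus called, while the background was 56.9% of tested genes (56.4% called higher and 0.47% called lower), so their count was not apart from that of genes at large.

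Without the library labelled F266A IP replicate 1 the differences were 0.64 for Malat1, 0.26 for Neat1 and -0.12 for Kcnq1ot1 (adjusted p = 0.00627, 0.0331 and 0.22, limma). Neat1 was no longer called without empty vector IP replicate 1 (adjusted p = 0.0708, limma) or replicate 2 (adjusted p = 0.0754, limma). Malat1 was no longer called when all symbols above 0 were fitted (adjusted p = 0.0604, limma). With equal medians it was not called either, at 0.36 above the inputs (adjusted p = 0.131, limma), and Kcnq1ot1 was at -0.41 (adjusted p = 0.059, limma), while quantile normalization left 0.0023 for Malat1 and -0.34 for Kcnq1ot1. Malat1 is among the highest values of every library, where quantile normalization fixes the level by rank. It ranked 13th in the empty vector input and 15th and 14th in that line's IPs. In F266A it ranked 9th in the input and 6th and 10th in the IPs. In WT it ranked 10th in the input and 12th and 9th in the IPs. All IPs were above their own input for Malat1 and Neat1, which held for 66.3% of tested genes. Kcnq1ot1 was below input in the 4 empty vector and WT IPs, as were 2.34% of tested genes, and in addition above it in both F266A IPs, as were 1.22%.

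The study's own criterion for WDR5 binding required that the lower WT score be above 0 and above all 4 scores of the F266A and empty vector lines. Applied here to the log2(RPKM + 1) scores, it held for 4.79% of the 24132 symbols and for 0 of the 4 lncRNAs. The paper states no pseudocount and used a transcriptome that also held UCSC genes and published predictions. Its own count is thus for another set. The lower WT score was 0.49 for Malat1 against a highest control score of 1.03, 0.08 against 0.49 for Neat1, 0.06 against 0.25 for Miat and -0.19 against 0.21 for Kcnq1ot1. In each case the highest control score came from the library labelled F266A IP replicate 1. Without that library Miat met the criterion and the other 3 did not. The criterion, with 1 control fewer, then held for 1977 of the 24132 symbols. For Miat, near the floor of detection, the lower WT score was 0.06 against a highest remaining control score of 0.04.

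The next comparisons set the scores of the lines against each other, input-corrected. Between WT and F266A the differences were -0.29 (standard error 0.27) for Malat1, -0.29 (0.20) for Neat1 and -0.27 (0.21) for Kcnq1ot1, that is, lower in WT for all 3, and each had an adjusted p of 1 (limma with Benjamini-Hochberg adjustment). The background was 0% of tested genes, and 259 genes (2.65%) had an unadjusted p under 0.05. Without the library labelled F266A IP replicate 1 the differences were -0.19, -0.25 and -0.19. Over all tested genes the median difference was -0.09.

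Between WT and the empty vector line the input-corrected differences were 0.18 (standard error 0.27) for Malat1, -0.03 (0.20) for Neat1 and 0.13 (0.21) for Kcnq1ot1, all with an adjusted p of 1 (limma), where the background was 0% (173 genes, or 1.77%, at an unadjusted p under 0.05). F266A against the empty vector gave 0.47 (0.27) for Malat1, 0.26 (0.20) for Neat1 and 0.41 (0.21) for Kcnq1ot1, again with an adjusted p of 1 (limma) and a background of 0% (243 genes, or 2.48%, unadjusted). The latter values became 0.37, 0.22 and 0.33 without the library labelled F266A IP replicate 1. These comparisons share their empty vector, WT or F266A libraries and are not independent. With standard errors of 0.20 to 0.27, differences of the size seen here were not detectable in this design.

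When the IPs were compared without inputs, Neat1 stood out. It was 1.08 lower in F266A IPs than in empty vector IPs (-1.08, standard error 0.12, adjusted p = 0.0105, limma with Benjamini-Hochberg adjustment), a comparison in which 4.55% of tested genes were called and 3.38% were called lower. The other 2 tested lncRNAs were not called, with 0.31 for Malat1 (adjusted p = 0.312, limma) and 0.40 for Kcnq1ot1 (adjusted p = 0.108, limma). Without the library labelled F266A IP replicate 1 the value was -1.12 for Neat1 (adjusted p = 0.0101, limma), 0.21 for Malat1 and 0.32 for Kcnq1ot1 (adjusted p = 0.575 and 0.217, limma). The call was lost without empty vector IP replicate 1 (adjusted p = 0.0993, limma) or replicate 2 (adjusted p = 0.0932, limma), where the difference was -1.09 and -1.07, and when all symbols above 0 were fitted (adjusted p = 0.12, limma).

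Neat1 was also 0.80 lower in WT IPs than in empty vector IPs (-0.80, standard error 0.12), with an unadjusted p of 0.000123 and an adjusted p of 0.135 (limma), so this difference was not called. In that comparison the background was 0%, with 557 genes (5.69%) at an unadjusted p under 0.05. Malat1 and Kcnq1ot1 differed by 0.23 and 0.13 there. Between WT and F266A IPs, where 1.16% of tested genes were called, 0 of the 3 lncRNAs were, with -0.08 for Malat1, 0.28 for Neat1 and -0.27 for Kcnq1ot1 (adjusted p = 0.862, 0.289 and 0.338, limma); without the library labelled F266A IP replicate 1 the values were 0.02, 0.32 and -0.19, so that of Malat1 changed sign. Since the empty vector input was above the other inputs for Neat1 as well, the order of the lines was that of the inputs. Both empty vector IPs lay above all other IPs for Neat1, as they did for 10.4% of tested genes, and 7.33% of tested genes had the empty vector line highest in inputs and IPs alike.

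The tested neighbors of Neat1 described here were not called in the F266A against empty vector IPs. The nearest tested gene, Frmd8, lies 4.2 kb away and was 0.25 higher in F266A IPs than in empty vector IPs (standard error 0.12, adjusted p = 0.294, limma). Malat1, 22037 bases away, had 0.31 (adjusted p = 0.312, limma). Sssca1 had 0.01, Dpf2 -0.09 and Pola2, a subunit of the primase complex of DNA polymerase alpha, -0.11 (adjusted p between 0.612 and 0.993, limma). Without the library labelled F266A IP replicate 1 the value of Sssca1 was -0.34 (adjusted p = 0.356, limma) and the others lay between -0.22 and 0.28, Malat1 included. Among these 5 neighbors 0 were called in either fit, where 4.55% of tested genes were.

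**Figure D3:**
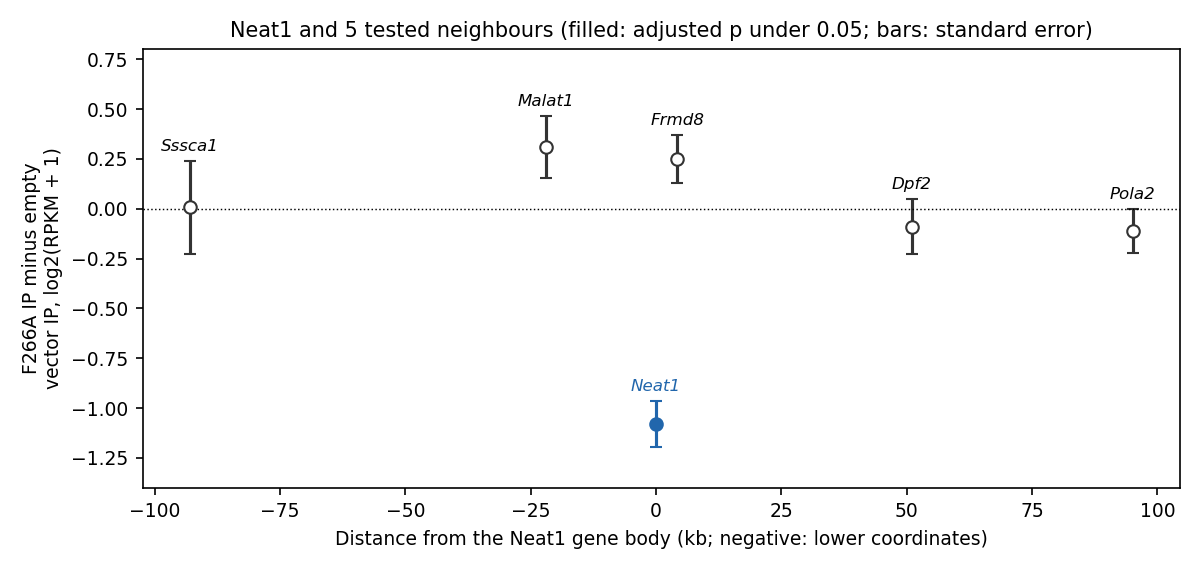
Difference between F266A IPs and empty vector IPs on the log2(RPKM + 1) scale (vertical axis) for Neat1 and 5 tested neighbors, by distance between gene bodies in kb (horizontal axis); bars are standard errors from limma. Neat1, at -1.08, was the only filled point (adjusted p under 0.05), and the neighbors lay between -0.11 and 0.31.

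In the IP against input comparison the neighbors of the lncRNAs had values on both sides of the median of tested genes. Around Malat1 and Neat1, Dpf2 rose by 0.39, Pola2 by 0.38, Sssca1 by 0.48 and Frmd8 by 0.29, whereas Fam89b, with 0.29, was not called (adjusted p = 0.0621, limma) unless the library labelled F266A IP replicate 1 was left out (0.33, adjusted p = 0.0445, limma). With equal medians Frmd8 turned to -0.02. Next to Miat all 6 tested neighbors rose, as 56.4% of tested genes did, from 0.26 for the tyrosylprotein sulfotransferase gene Tpst2, which turned to -0.05 with equal medians, to 0.56 for the checkpoint kinase gene Chek2. The other 4 were Hscb (0.38), Tfip11 (0.37), Srrd (0.46) and Pitpnb (0.46). Hscb also differed by -0.62 between F266A and empty vector IPs (adjusted p = 0.0392, limma), where 3.38% of tested genes were called lower. Without the library labelled F266A IP replicate 1 this value was -0.68. On one side of Miat the nearest tested gene was 824.9 kb away, so these genes are neighbors only in rank.

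Around Kcnq1ot1, genes of its imprinted domain were tested as a list. Kcnq1ot1 silences several of them on the paternal chromosome. Of 12 listed genes all were in the table and 7 were tested, of which 4 rose in the IPs, 0 fell and 3 did not pass, a share close to the 56.4% of all tested genes called higher. The median was 0.36 (0.31 without the library labelled F266A IP replicate 1) against 0.30 over all tested genes. Cdkn1c, a cell cycle inhibitor and target of this silencing, had an RPKM of 1.118 in the empty vector input, 1.616 in F266A and 0.7509 in WT, and of 1.718 and 1.622, 2.841 and 2.98, and 2.39 and 1.393 in the respective IPs. It was 0.54 higher in the IPs (standard error 0.12, adjusted p = 0.00776, limma). The histone chaperone gene Nap1l4 rose by 0.53, the tetraspanin gene Cd81 by 0.53 and the decoy receptor gene Tnfrsf23 by 0.36.

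Phlda2, an inhibitor of placental growth from the same domain, had 0.26 (adjusted p = 0.0888, limma), which turned to -0.05 with equal medians. Tssc4 had 0.25 (adjusted p = 0.0969, limma) and turned to -0.06. Kcnq1ot1 itself, at -0.10, was below all 7 tested genes of its domain, whose lowest value was 0.23. Only 2.6% of all tested genes were lower than Kcnq1ot1, so this place was not particular to its domain. With equal medians 0 of the 7 were called. R74862, a neighbor that is not on the list, had 0.25 (adjusted p = 0.104, limma) and turned to -0.06 with equal medians.

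The mRNAs of proteins that gather on Neat1 or with Malat1 were described in the same way. Of 16 paraspeckle protein genes all were tested, and 15 rose in the IPs, 0 fell and 1 did not pass, where 56.4% of all tested genes were called higher. The median was 0.45, and 0.43 without the library labelled F266A IP replicate 1. Hnrnpk rose by 0.72 (standard error 0.14, adjusted p = 0.00513, limma) and the core proteins' genes Sfpq and Nono by 0.60 and 0.57. Hnrnpa1 and Dazap1, which encode RNA-binding proteins of the same bodies, rose by 0.50 and 0.48. All 16 were above input in all 6 IPs, as were 66.3% of tested genes, and with equal medians 0 were called.

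The next list was of nuclear speckle and SR proteins, splicing factors of the bodies in which Malat1 resides. It also held Qk, Celf3 and Rbfox2, so it is not confined to such proteins. Among its 25 genes 24 were tested. Of these 20 rose, 0 fell and 4 did not pass, against 56.4% called higher among all tested genes. The median was 0.46, and 0.41 with 19 called higher when the library labelled F266A IP replicate 1 was left out. Srsf2, which encodes an SR protein of constitutive and alternative splicing, had an RPKM of 52.38 in the empty vector input, 44.7 in F266A and 47.94 in WT. Its IP values were 121.2 and 117.6 in the empty vector line, 127.7 and 90.58 in F266A and 116.9 and 94.71 in WT. It rose by 1.18 (standard error 0.13, adjusted p = 0.00224, limma), more than Malat1. Ddx39b, an export helicase gene, rose by 0.81 (0.69 without that library), Srsf3 by 0.69, Srsf7 by 0.64 and Rnps1, of the exon junction, by 0.59. With equal medians 1 of the 24 was called higher.

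**Figure D4:**
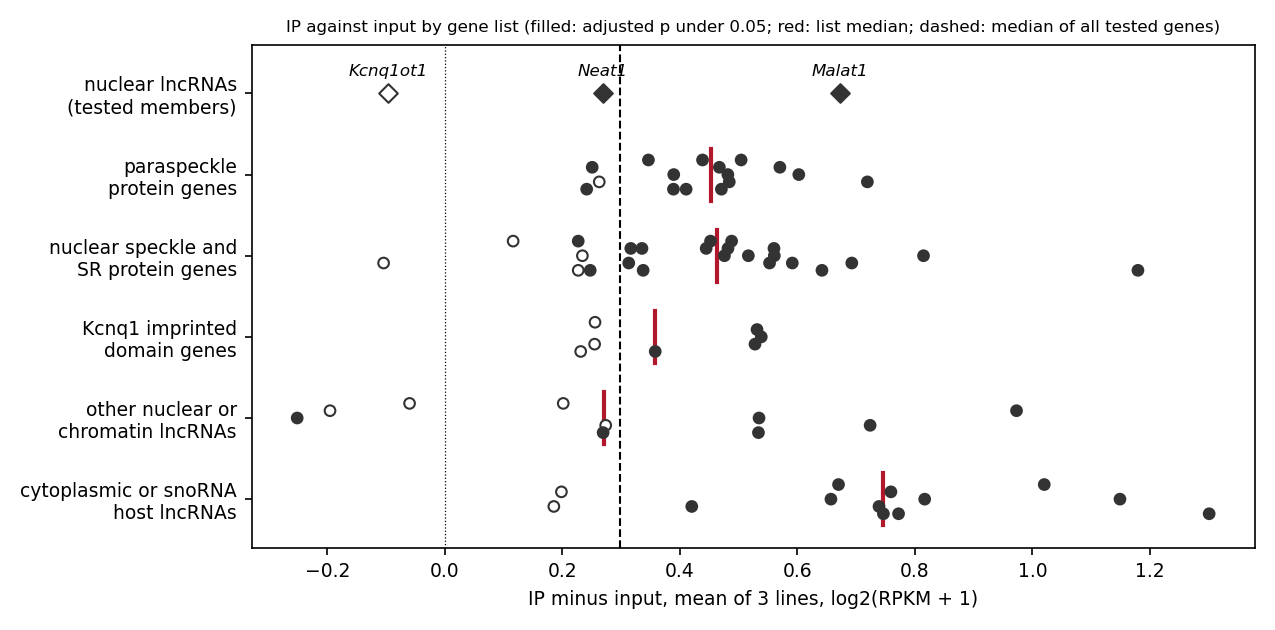
IP minus input difference on the log2(RPKM + 1) scale (horizontal axis) for the 3 tested lncRNAs and the tested genes of 5 lists; filled symbols had an adjusted p under 0.05 and red lines are list medians. Malat1, at 0.67, lay to the right of the median of all tested genes (dashed, 0.30), Neat1, at 0.27, just to its left and Kcnq1ot1 at -0.10.

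A list of other lncRNAs of nucleus and chromatin was described next. Of 21 listed, 18 were in the table and 10 were tested. Of these 5 rose, 1 fell and 4 did not pass, where 56.4% of all tested genes were called higher and 0.47% lower. The median was 0.27, and 0.28 without the library labelled F266A IP replicate 1. Mirg, Rian and Meg3, the maternally expressed RNAs of the Dlk1 domain, rose by 0.97 (standard error 0.28), 0.72 (0.20) and 0.53 (0.14). Mirg was 4.16 in the empty vector input, 2.669 in F266A and 2.658 in WT, and between 4.156 and 13.1 in the IPs, with the highest value in the library labelled F266A IP replicate 1, without which its difference was 0.73 (adjusted p = 0.0057, limma). Rian and Meg3 had 0.61 and 0.45 without it.

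Firre, listed as 6720401G13Rik, an RNA that contacts several chromosomes from the X, rose by 0.53. Pvt1, which lies beside Myc, rose by 0.27 but turned to -0.04 with equal medians and to -0.03 after quantile normalization. The RNA that fell, named after its values were seen, was Tsix, the antisense partner of Xist. Its RPKM was 4.185 in the empty vector input, 5.371 in F266A and 4.059 in WT, and 2.897 and 3.48, 4.52 and 4.899, and 3.002 and 3.317 in the respective IPs, and its difference was -0.25 (standard error 0.08, adjusted p = 0.0349, limma), or -0.24 without the library labelled F266A IP replicate 1 (adjusted p = 0.0476, limma). As with Kcnq1ot1, its reads cannot be told apart from those of its partner where they overlap. With equal medians 0 of the 10 were called higher and 2 lower.

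Spliced lncRNAs that leave the nucleus or that host snoRNAs had the highest median of the lists, 0.75. All 14 were in the table and 13 were tested, of which 11 rose, 0 fell and 2 did not pass, against 56.4% of all tested genes called higher. Without the library labelled F266A IP replicate 1 the median was 0.72 with the same count. The snoRNA hosts Snhg5, Snhg1 and Snhg3 rose by 1.30 (standard error 0.35), 1.15 (0.11) and 1.02 (0.10), and Epb41l4aos (2410004N09Rik) and Zfas1 (1500012F01Rik) by 0.82 and 0.77. Snhg5 was spread widely, with 79.48 in WT IP replicate 1 and 23.2 in replicate 2, below its WT input of 35.09. Only Epb41l4aos and Zfas1 among all listed genes were also called lower in F266A IPs than in empty vector IPs, as Neat1 was, and both calls were lost without the library labelled F266A IP replicate 1 (-0.56 and -0.53, adjusted p = 0.0567 and 0.0941, limma). Both were lower in the F266A input than in the empty vector input as well. The RPKM was 4.119 against 9.014 for Epb41l4aos and 10.12 against 18.87 for Zfas1. These calls thus concern IP levels and not scores. Among all tested genes, 3.38% were called lower in F266A IPs than in empty vector IPs. With equal medians 2 of the 13 were called higher than input. No difference between lists was tested.

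The tested genes most like each lncRNA over the 9 libraries were found by Pearson's r of log2(RPKM + 1), as a description in which all points share depth and fraction with the lncRNA. For Malat1 they were Mapk13 (r = 0.991), Erc1 (0.99) and Polr3e (0.986), and for Neat1 Aldoa (0.973), Vwa8 (0.967) and Gys1 (0.965). Aldoa, the muscle-type aldolase of glycolysis, was 61.1 in the empty vector input, 35.06 in F266A and 49.48 in WT, the same order of lines as Neat1. For Kcnq1ot1 they were Zbtb26 (0.961), Snord45c (0.96) and Gm20199 (0.944). Snord45c was highest, at 2.826, in the library labelled F266A IP replicate 1, and no r was computed without that library. Among the lncRNAs themselves, r over the 9 libraries was 0.085 between Malat1 and Neat1 in spite of their adjacent genes, 0.035 between Malat1 and Kcnq1ot1 and -0.646 between Neat1 and Kcnq1ot1. Malat1 was highest in the IPs of all lines, Neat1 in the empty vector line and Kcnq1ot1 in the F266A IPs.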

How the data were processed

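RIPiT-seq libraries of 3 ESC lines, with 1 input and 2 IPs each, were grouped by their labels. The authors mapped reads to mm9 with TopHat 1.1.3 (named in the submitters' processing notes) and deposited RPKM per gene symbol, computed with a script of their own; transcript lengths are not given in the sources used here. RPKM are not counts, so no count test was used, and depth was estimated from the lowest steps. No error was computed for the depth estimates.

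Differences on the log2(RPKM + 1) scale, which understates changes of low genes, were tested two-sidedly with limma 3.58.1 under R 4.3.3 (lmFit, then contrasts, then eBayes with a trend). The 9787 genes that reached an RPKM of 1 in 2 or more libraries were fitted with 6 coefficients, 1 for each pair of line and fraction. Genes were called at an adjusted p under 0.05 (Benjamini-Hochberg). The spread came from the 3 pairs of IPs, and since the labels do not say what separates replicates it may be technical. The procedure was run on simulated data with independent noise and with changes placed only in the WT IPs. That run did not evaluate IP against input or F266A IPs against empty vector IPs, and no result here rests on it. Other steps used Python 3.11.15, numpy 2.4.6, pandas 2.3.3 and matplotlib 3.10.9.

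The 4 lncRNAs and the gene lists were chosen with earlier results of these data known. Besides them, the text names from each list up to 5 called genes with the largest IP against input difference, up to 3 tested neighbors per side, of which 1 is not reported here, and the 3 genes with the highest r. Positions and sequences are from mm9 with GENCODE M1, and promoters and the Kcnq1ot1 length from RefSeq on GRCm38.p6, placed on mm9 by sequence; positions of the later assembly are not printed. Alternatives were a pseudocount of 0.1, all symbols above 0, equal medians, quantile normalization, a block for replicate number, eBayes with no trend, an additive fit, centred scores and leaving out each IP. All symbols above 0 with a pseudocount of 0.1 was chosen after seeing the data.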

Additional observations from a re-analysis of the deposited data

Results flagged for a closer look

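The score of Kcnq1ot1 lay below 0 in both empty vector IPs and above 0 in both F266A IPs, and the line means differed by 0.407 (F266A minus empty vector). The same opposition held against WT, where both scores were below 0 and WT minus F266A was -0.2747. Replicates within a line did not cross 0, which is what singled these out. The same signs in all IPs held for 1.22% of tested genes. Against the median score of tested genes in each IP, Kcnq1ot1 was above in 0 of 6. The input-corrected tests of both differences gave an adjusted p of 1 (limma with Benjamini-Hochberg adjustment), and the unadjusted p was 0.0889 and 0.228. Without the library labelled F266A IP replicate 1, which went against its line, the differences were 0.33 and -0.19. All scores of a line share 1 input.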

How the results depend on the processing

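The number of genes called between IP and input was 5567, and it was 3258 with all symbols above 0, 239 after quantile normalization and 153 with equal medians; 99.2%, 93.1%, 42.3% and 60.1% of the calls were higher in the IPs. Leaving out each IP in turn gave 3998 to 5875 calls there, 0 to 2 for WT against F266A input-corrected, 0 to 196 for WT IPs against F266A IPs (114 with all), 0 to 7 for WT IPs against empty vector IPs and 0 to 480 for F266A IPs against empty vector IPs (445 with all). The input-corrected comparisons, with 0 calls, gave 33 (WT against F266A), 45 (WT against empty vector) and 22 (F266A against empty vector) with all symbols above 0, and 65, 78 and 36 when a pseudocount of 0.1 was added to that; the pseudocount alone gave 88 for F266A against empty vector. None of these calls was a member of the 4 lncRNAs. With all symbols above 0 the IP comparisons gave 0 (WT against F266A), 2 (WT against empty vector) and 2 (F266A against empty vector), and after quantile normalization 2 and 242 for the last pair. The criterion of the study held for 1157 symbols, for 518 with the filter on RPKM, for 723 with centred scores and for 1426 to 3354 with an IP left out.

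Values that changed sign were, with equal medians, Neat1 (-0.0415), Fam89b (-0.0186), Frmd8 (-0.0195), Phlda2 (-0.0543), Pvt1 (-0.0406), R74862 (-0.059), Tpst2 (-0.0519) and Tssc4 (-0.0551) in IP against input, and after quantile normalization Neat1 (-0.1305), Dpf2 (-0.0434), Phlda2 (-0.1909) and Pvt1 (-0.0314) there. For WT against empty vector, input-corrected, Neat1 turned to 0.0677 after quantile normalization and lay between -0.1126 and 0.0532 with 1 IP left out, the latter without WT IP replicate 1. Malat1 in WT IPs against F266A IPs lay between -0.2276 and 0.062 with 1 IP left out, at 0.018 without F266A IP replicate 1 and at 0.062 without WT IP replicate 1. Of the other values for single genes under an alternative, 674 kept direction and call, 103 lost and 6 gained the call. The cause of these changes was not tested.

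Replicate numbers 1 and 2 are shared by the lines, but the differences between replicates correlated with r of 0.012, 0.112 and 0.258 between lines, so the samples were taken to share only a number. With a block for replicate number, 7 genes were called for WT IPs against empty vector IPs, 607 for F266A IPs against empty vector IPs, 154 for WT IPs against F266A IPs and 5847 between IP and input. No call among the 3 tested lncRNAs changed under the block.

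Inputs have no replicate, no IP line has more than 2, and Miat rests on 11 to 42 reads, so small differences between lines were beyond this design.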
